A study of Mus musculus with 6 samples.

Results

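The actin isoform family of the mouse comprises 6 genes, which are Acta1 and Actc1 of striated muscle, Acta2 and Actg2 of smooth muscle, and the cytoplasmic Actb and Actg1. Members were the probe sets that the platform annotation pairs with these symbols, and 5 of the 6 genes had a probe set, 1 each, out of 19505 genes on the array. Actg1, which encodes cytoplasmic gamma-actin, was not analysed here. Of the 6 single-colour arrays, 3 came from C57BL/6J mice gavaged daily with MBELN, nanoparticles resembling exosomes made from mulberry bark, over 7 days, and 3 from control mice of the same strain, titled PBS. The labels give colon crypt as the tissue of all 6 arrays and state no age, sex or pooling. Whether the arrays come from separate mice is not stated. The p-values therefore weigh a difference only against the spread of these samples within their groups. That spread may be technical, and in the MBELN arrays it includes the differences in tissue markers given below. The small number of arrays limits precision.

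Actin monomers polymerise into the microfilaments that carry cell shape, movement and contraction, and the isoforms are nearly identical proteins that differ mainly at their amino terminus. Actb and Actg1 are made in almost every cell and build, among much else, the core of the microvilli on gut epithelial cells. Actg2 is the actin of visceral smooth muscle such as the gut wall, Acta2 that of vascular smooth muscle and also of gut smooth muscle, pericytes and myofibroblasts, Actc1 that of adult heart, and Acta1 that of skeletal muscle with a lower level in heart. Because the genes are so alike, signal that 1 isoform gives to the probe set of another was not tested, and the isoform names rest on the platform annotation.

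The promoters of muscle actins are known for CArG boxes, the sites that serum response factor (SRF) binds, made of CC, 6 letters that are A or T, and GG. The sequences below are shown because Acta1, Actc1 and Acta2 vary widely between the arrays and have an entry in the table. Each is the 250 bases before the gene's start in RefSeq, build GRCm38.p6, written 5′ to 3′ on the minus strand of the genome, with CArG boxes in capitals, including those in which 1 of the 6 inner letters is C or G.
Actc1, chr2:114052876-114053125: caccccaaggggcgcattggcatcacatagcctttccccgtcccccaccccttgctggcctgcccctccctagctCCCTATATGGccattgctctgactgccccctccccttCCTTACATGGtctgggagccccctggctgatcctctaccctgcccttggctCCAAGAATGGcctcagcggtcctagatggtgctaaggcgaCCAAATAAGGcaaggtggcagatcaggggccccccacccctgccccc
Acta1, chr8:123894776-123895025: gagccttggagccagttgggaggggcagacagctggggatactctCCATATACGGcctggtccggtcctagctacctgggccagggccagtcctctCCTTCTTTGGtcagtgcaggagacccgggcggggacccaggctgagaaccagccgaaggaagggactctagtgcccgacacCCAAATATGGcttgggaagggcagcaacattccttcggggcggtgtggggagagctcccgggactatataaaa
Acta2, chr19:34255374-34255623: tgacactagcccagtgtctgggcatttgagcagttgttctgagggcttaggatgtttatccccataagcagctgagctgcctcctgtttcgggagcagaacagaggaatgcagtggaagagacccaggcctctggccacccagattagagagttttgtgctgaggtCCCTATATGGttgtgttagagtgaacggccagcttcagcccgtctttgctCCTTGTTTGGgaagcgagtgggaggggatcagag

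The exact motif reads the same on both strands. It was found in the Actc1 window as CCAAATAAGG from -47 to -38 relative to the start, and in the Acta1 window as CCAAATATGG from -73 to -64. Actc1 held 3 more sites that were 1 letter off and Acta1 held 2. Acta2 held no exact site and 2 that were 1 letter off, CCCTATATGG from -84 to -75 and CCTTGTTTGG from -34 to -25. Of 32851 promoter windows of the same length, 1.47% held an exact site and 7.24% held a site that was 1 letter off. A match is a description of the letters and not of binding.

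Values are the deposited values per probe set, read as log2. The dim level of an array is the value under which 95% of its 1412 probe sets for odorant and vomeronasal receptors fell, and it lay between 3.99 and 4.44. The arrays did not fall into groups by their labels alone. In the arrays labelled MBELN 1 and MBELN 3, 15 heart muscle genes had a median of 18.22 and 18.48, against 3.37 in MBELN 2 and 3.52 to 3.66 in the PBS arrays. In the array labelled MBELN 2, 12 neuronal genes had a median of 15.84, against 3.18 and 3.63 in the other MBELN arrays and 3.94 to 4.405 in PBS. Gut epithelial genes, 12 in number, had medians of 6.40, 3.37 and 5.69 in MBELN 1, 2 and 3, and of 18.61, 17.84 and 18.58 in PBS 1, 2 and 3, so the epithelial markers of the labelled tissue were low in every MBELN array. These values go against the colon crypt label of the 3 MBELN arrays. The PBS arrays also had high smooth muscle values, with Myh11 at 14.69 to 16.48, and were not alike. Vil1 read 12.55 in PBS 2 against 16.88 and 17.45 in PBS 1 and PBS 3. Lum read 14.49 in PBS 2 against 8.69 and 8.80. How far the PBS arrays hold crypt alone was not tested. MBELN and PBS below are therefore the arrays so labelled, and an effect of the treatment and a difference in tissue cannot be told apart in any difference between them, rises and falls included. Whether fewer cells of a type or less RNA per cell lies behind a lower value cannot be told apart in such samples.

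Among the actin isoforms, Actg2 was far lower in every MBELN array, Acta2 was lower in every MBELN array but by very different amounts, Actc1 and Acta1 were high in MBELN 1 and MBELN 3 and below 5 log2 units in the other arrays, and Actb lay near the top of the scale in 4 arrays and somewhat lower in MBELN 1 and MBELN 3. With limma and Benjamini-Hochberg adjustment over all 22206 probe sets, 1 of the 5 members, Actg2, passed an adjusted p of 0.05, where 5.18% of all probe sets passed, 1.42% higher and 3.76% lower in MBELN. The MBELN and PBS values did not overlap for Acta2 and Actg2, which is 2 of 5 members, where this held for 25.3% of all probe sets, 11.9% higher and 13.4% lower in MBELN. The median difference of all probe sets was 0.09 log2 units.

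**Figure D1:**
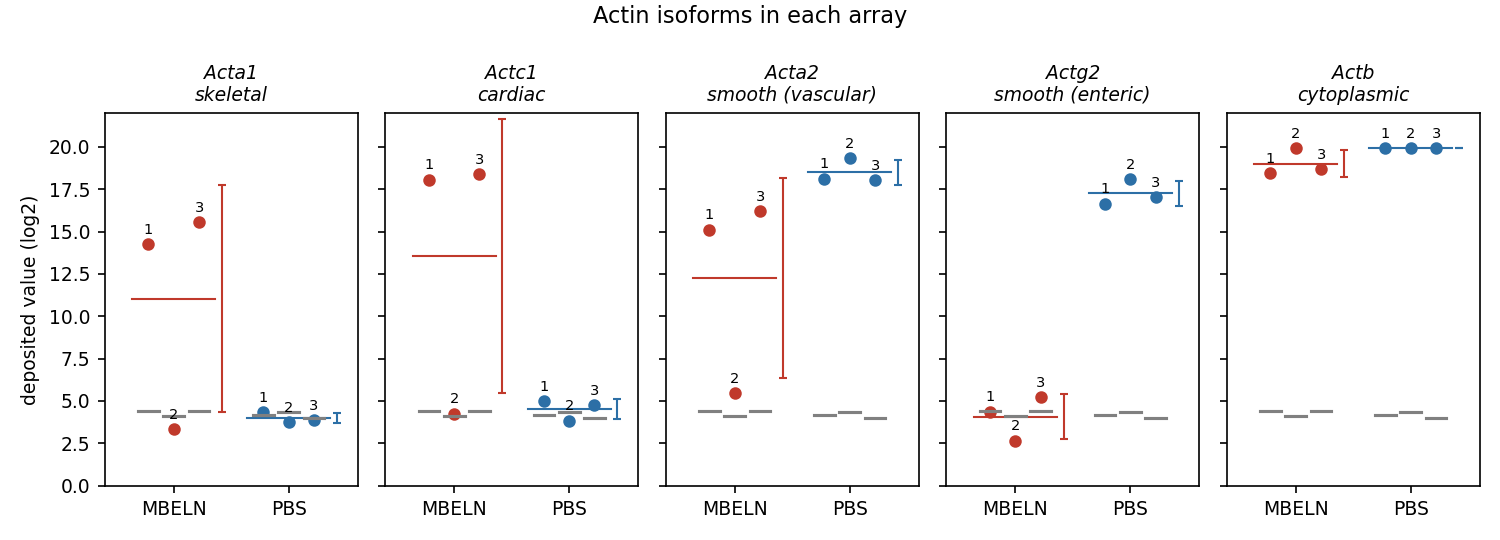
Deposited log2 value of 5 actin genes in each array, MBELN left and PBS right, with points numbered by replicate. Horizontal lines are group means, bars beside them the SD of 3 arrays, and short grey lines each array's dim level; Acta1 and Actc1 stand above that level by a wide margin in MBELN 1 and MBELN 3, and Actg2 is at or near it in all MBELN arrays.

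Actc1, the cardiac alpha-actin, read 18.06, 4.24 and 18.39 in MBELN 1, 2 and 3, and 4.99, 3.84 and 4.74 in PBS 1, 2 and 3. The values of MBELN 1 and MBELN 3 stood far above all others, while MBELN 2 fell inside the PBS range, so the groups overlap. The means were 13.56 ± 8.07 in MBELN and 4.53 ± 0.61 in PBS (log2, SD, n = 3 each). The difference of 9.04 ± 3.94 (SE) did not pass the threshold (limma, adjusted p = 0.314). Without MBELN 2 it was 13.70 (limma, adjusted p = 0.000113). Leaving out any other array gave an adjusted p of 0.467 to 0.594, so the small p rests on removing the array that lacks the rise. The hybridisation control probe sets, bacterial and phage transcripts that check the chip's staining, put the arrays in a higher level, with MBELN 1, MBELN 3 and PBS 2, and a lower level, with MBELN 2, PBS 1 and PBS 3. Within the higher level, where PBS 2 is the only PBS array, the Actc1 difference was 14.39. Within the lower level, where MBELN 2 is the only MBELN array, it was -0.63. Fitted with the level as a block it was 6.88 (adjusted p = 0.315).

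Acta1, the skeletal alpha-actin, was high in the same arrays as Actc1. It read 14.24, 3.34 and 15.56 in MBELN 1, 2 and 3, and 4.32, 3.76 and 3.87 in PBS 1, 2 and 3. MBELN 2 was the lowest of the 6, and of the 4 low values only that of PBS 1 lay above its array's dim level. Means were 11.05 ± 6.71 in MBELN and 3.99 ± 0.30 in PBS (SD, n = 3 each), a difference of 7.06 ± 3.27 (SE; limma, adjusted p = 0.341). Without MBELN 2, again the array that lacks the rise, it was 10.92 (adjusted p = 0.000217). Leaving out any other array gave an adjusted p of 0.484 to 0.619. Within the higher hybridisation control level the difference was 11.14, within the lower level -0.76, and when the level was a block 5.19 (adjusted p = 0.337).

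The striated isoforms were high in the arrays where heart muscle markers were high. Myh6, the cardiac myosin heavy chain, read 18.82, 3.68 and 19.03 in MBELN 1, 2 and 3 and 3.24 to 3.66 in PBS. Tnni3, the cardiac troponin inhibitor, read 18.63, 3.75 and 18.48 in MBELN and 3.91 to 4.57 in PBS, and Myl7, the atrial myosin light chain, 10.74, 3.37 and 13.44 in MBELN and 4.07 to 4.46 in PBS. Of the 15 heart genes, 15, 3 and 15 lay above the dim level in MBELN 1, 2 and 3, and 3, 4 and 5 in PBS 1, 2 and 3. The log2 of their summed level lay between 9.52 and 22.53 in MBELN and between 8.18 and 11.21 in PBS.

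Of 15 skeletal muscle genes, 3, 2 and 4 were above the dim level in MBELN 1, 2 and 3, and 1 or 2 in the PBS arrays. Myh4 and Tnnt3, the fast myosin heavy chain and fast troponin T of skeletal muscle, were below that level in all 6 arrays, and Mylpf, the fast myosin light chain, was above it in PBS 3 alone, at 4.13. Ckm, the muscle creatine kinase that heart also expresses, read 15.81, 6.35 and 16.42 in MBELN 1, 2 and 3 and 6.26 to 6.97 in PBS. The skeletal list's median was 3.17 to 3.61 in MBELN and 2.99 to 3.13 in PBS. Casq1, the calsequestrin of fast skeletal muscle, named after its values were seen, read 5.72 and 5.99 in MBELN 1 and MBELN 3, against 3.17 in MBELN 2 and 2.87 to 3.45 in PBS. Also above the dim level were Tnni2 in MBELN 1, at 5.15, Pvalb in MBELN 2, at 8.89, and Mybpc2 and Neb in MBELN 3, at 4.65 and 4.57. Pvalb read 2.77 to 4.06 in the other arrays. Myh4, Tnnt3 and Mylpf were thus below the dim level in the arrays where Acta1 was high, while some other skeletal muscle genes were above it. The part of heart or skeletal muscle RNA in the Actc1 and Acta1 values was not tested.

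**Figure D2:**
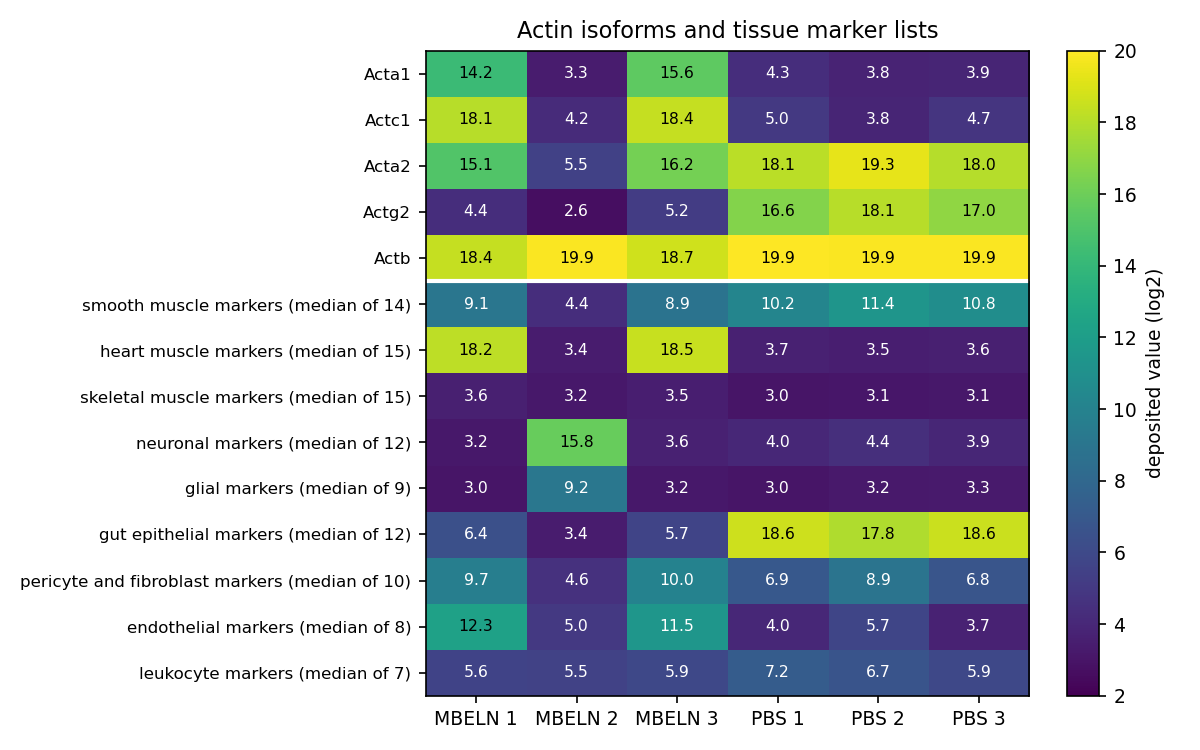
Deposited log2 values of the 5 actin genes (upper rows) and medians of 9 tissue marker lists (lower rows) in each array, to be read along a row because levels of different probe sets are not comparable. Actc1, Acta1 and the heart muscle list are high in MBELN 1 and MBELN 3, and Actg2 is high in the 3 PBS arrays, as is the gut epithelial list.

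Actg2, the enteric gamma-actin of smooth muscle, read 4.36, 2.65 and 5.22 in MBELN 1, 2 and 3, and 16.65, 18.09 and 17.02 in PBS 1, 2 and 3. All MBELN values were far below all PBS values, and 1 of them, that of MBELN 3, lay above its array's dim level. Means were 4.08 ± 1.31 in MBELN and 17.25 ± 0.75 in PBS (log2, SD, n = 3 each). Actg2 fell by 13.18 ± 0.77 (log2, SE; limma, adjusted p = 0.00143). Its range over the 6 arrays, 15.44, was wider than that of 99.6% of all probe sets. The fall was 13.30 within the higher and 14.19 within the lower hybridisation control level, and 13.74 when it was a block. The Actg2 value of MBELN 2 lay below the dim level in an array where Actb stood at 19.92.

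Acta2, the alpha-actin of vascular and other smooth muscle, read 15.11, 5.45 and 16.21 in MBELN 1, 2 and 3, and 18.11, 19.33 and 18.02 in PBS 1, 2 and 3. The groups did not overlap, and MBELN 2 lay far below the other MBELN arrays, though above its dim level. Means were 12.26 ± 5.92 in MBELN and 18.49 ± 0.73 in PBS (SD, n = 3 each), a difference of -6.23 ± 2.91 (SE; limma, adjusted p = 0.344). Without MBELN 2 the difference was -2.83 (adjusted p = 0.0253), and leaving out any other array gave an adjusted p of 0.324 to 0.619. The difference was -3.67 within the higher hybridisation control level, where PBS 2 is the only PBS array. It was -12.62 within the lower, where MBELN 2 is the only MBELN array, and -8.14 (adjusted p = 0.108) when the level was a block.

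The smooth muscle pair therefore parted in MBELN 1 and MBELN 3. Against its own PBS mean, Acta2 stood at -3.38 and -2.28 in these arrays and Actg2 at -12.89 and -12.03. In MBELN 2 they stood at -13.04 and -14.61. The change of Acta2 exceeded that of Actg2 by 6.94 log2 units on average, and the exact two-sided permutation test over 3 against 3 arrays gave p = 0.10, the smallest it can give, and 0.125 after adjustment over the 10 pairs of members. For Acta1 against Actc1 the changes differed by -1.98, with p = 0.10 in the same permutation test. Most of the 10 pairs reached this smallest value, so it does not mark these pairs out. Against the PBS mean of the difference Acta1 minus Actc1, MBELN 2 stood at -0.37 and PBS 3 at -0.33, so the groups barely separated. Acta1 lay below the dim level in MBELN 2, PBS 2 and PBS 3, and Actg2 in MBELN 1 and MBELN 2. Dim values thus enter both differences, whose size is poorly determined. A design of 3 against 3 cannot reach 0.05 in this test.

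**Figure D3:**
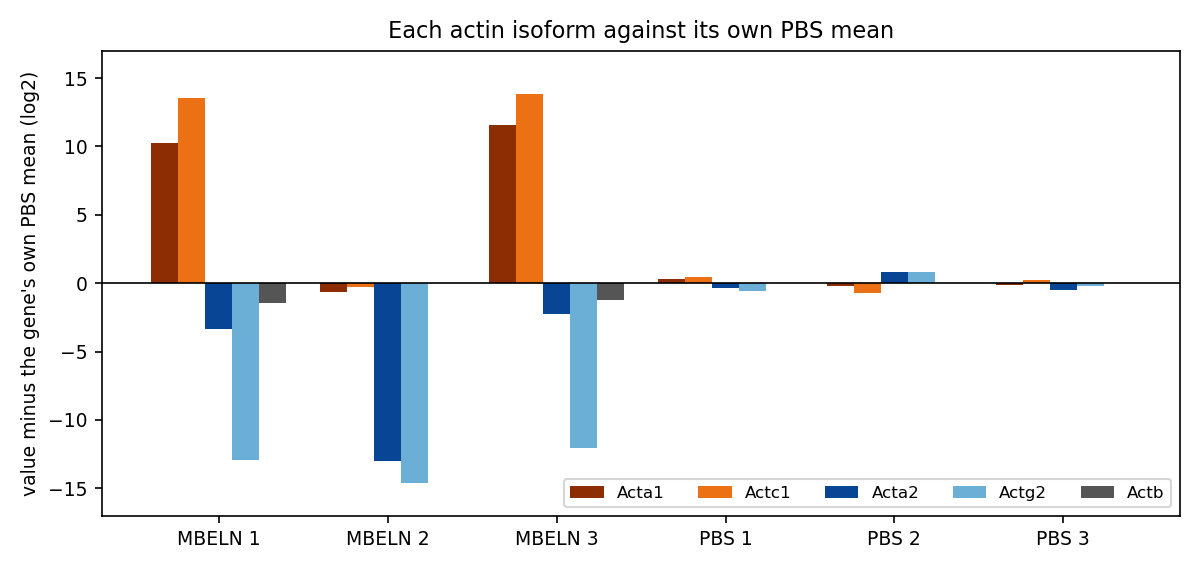
Value of each actin gene minus its own mean over the 3 PBS arrays (log2), by array, with bars from 0. In MBELN 1 and MBELN 3 Actc1 and Acta1 stand above 10 and Actg2 below -12 while Acta2 stands at -3.38 and -2.28; in MBELN 2 both smooth muscle isoforms stand below -13 and the striated isoforms near 0.

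Among markers of smooth muscle, several were lower in MBELN as well. Limma called 7 of the 14 measured genes lower at an adjusted p of 0.05 and 0 higher, with a median difference of -2.82. Of all probe sets, 3.76% were called lower and 1.42% higher. Mylk, the myosin light chain kinase that starts smooth muscle contraction, fell by 8.24 ± 0.83 (log2, SE, n = 3). Myh11, the smooth muscle myosin heavy chain, read 6.76, 3.003 and 6.46 in MBELN 1, 2 and 3 and 14.69, 16.48 and 14.72 in PBS 1, 2 and 3. Cnn1, calponin, read 7.62, 2.50 and 6.09 in MBELN and 16.65, 19.44 and 16.77 in PBS. For both, as for Actg2, PBS 2 was highest and MBELN 2 lowest.

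Tagln, transgelin, read 11.95, 5.34 and 10.35 in MBELN 1, 2 and 3, and 16.41, 19.63 and 16.35 in PBS 1, 2 and 3 (limma, adjusted p = 0.0822). Des and Hspb7, which heart muscle also expresses and which were named after their values were seen, were higher in MBELN 1 and MBELN 3 than in PBS, with Des at 16.49 and 16.38 against 13.32 to 14.58. Pcp4l1, a calmodulin-binding peptide, also named after its values were seen, read 14.52, 11.71 and 14.65 in MBELN and 9.26 to 9.99 in PBS (limma, adjusted p = 0.0626). Without MBELN 2, where 16.8% of all probe sets passed, 8 of the 14 genes were called lower and 3 higher. The log2 of the summed level of the 14 genes lay between 11.85 and 19.77 in MBELN and between 18.18 and 20.73 in PBS. Most of the sum in MBELN 1 and MBELN 3, 19.77 and 19.69, came from Hspb7. That gene read 19.55 and 19.47 there and 7.91 to 7.99 in PBS. Of 10 pericyte and fibroblast genes, which label other cells that can make Acta2, 0 passed, where 5.18% of all probe sets did. With limma 1 of the 10 had an unadjusted p under 0.05. It was Notch3, which lay below the dim level in all arrays. Of the same 10, 2 were called higher without MBELN 2, where 16.8% of all probe sets passed. Without PBS 2 and MBELN 2, where 30.5% passed, 8 of the 10 were. Their median was 9.71, 4.56 and 9.96 in MBELN 1, 2 and 3 and 6.94, 8.94 and 6.77 in PBS 1, 2 and 3, so MBELN 2 was lowest here as for Acta2. Rgs5, a pericyte regulator of G protein signalling, read 15.45, 8.69 and 15.28 in MBELN and 13.28, 8.73 and 13.54 in PBS. Pdgfrb read 8.33, 6.03 and 8.61 in MBELN and 6.96, 6.02 and 6.57 in PBS. Among the PBS arrays, Rgs5 and Pdgfrb were lowest in PBS 2. Col1a1, Col1a2, Col3a1, Dcn, Lum and Postn of the same list, named after their values were seen, were highest there, as Acta2 was. Dcn read 14.97, 19.92 and 15.64 in PBS 1, 2 and 3. Cspg4 lay above the dim level in 1 array of each group. The part of these cells in the Acta2 values was not tested.

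Actb, cytoplasmic beta-actin, read 18.45, 19.92 and 18.68 in MBELN 1, 2 and 3, and 19.93, 19.92 and 19.92 in PBS 1, 2 and 3. MBELN 1 and MBELN 3 were lower than the rest, and MBELN 2 fell inside the PBS range. In PBS 1 and PBS 2 Actb was at the highest value of the array, which 21 and 40 probe sets shared, and in PBS 3 and MBELN 2 it was 0.0078 and 0.014 below it. Differences that involve these values may be understated, and the PBS spread of 0.0077 (SD, n = 3) is not a measure of biological spread. The mean was 19.01 ± 0.79 in MBELN, a difference of -0.91 ± 0.45 (SE; limma, adjusted p = 0.372). Without MBELN 2 it was -1.36 (adjusted p = 0.0227), and leaving out any other array gave an adjusted p of 0.497 to 0.657. Within the higher hybridisation control level the difference was -1.35, within the lower -0.01, and when the level was a block -0.68 (adjusted p = 0.384).

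Actb is often used to scale measurements of other genes. With limma over all 6 arrays, 12 measured genes used in the same way gave 0 calls and 0 unadjusted p under 0.05. Of all probe sets 5.18% were called, and 0 of 12 is near that share. Without MBELN 2, where 16.8% of all probe sets passed, 2 of the 12 were called higher and 1 lower. Without PBS 2 and MBELN 2, where 30.5% passed, 4 were called higher and 3 lower. The range of Actb over the 6 arrays, 1.48 log2 units, is bounded by the top of the scale and was not set against that of other genes. Gapdh, a glycolytic enzyme, read 19.899, 19.93 and 19.93 in MBELN and 18.72, 19.91 and 18.32 in PBS. B2m, the light chain of MHC class I, read 18.39, 13.45 and 18.40 in MBELN and 19.93, 18.40 and 19.83 in PBS. Each thus varied by more than 1 log2 unit over arrays, and their order of arrays was not that of Actb. All MBELN values of Gapdh and the PBS 1 value of B2m were the highest of their arrays. These ranges and orders are therefore also bounded by the top of the scale.

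**Figure D4:**
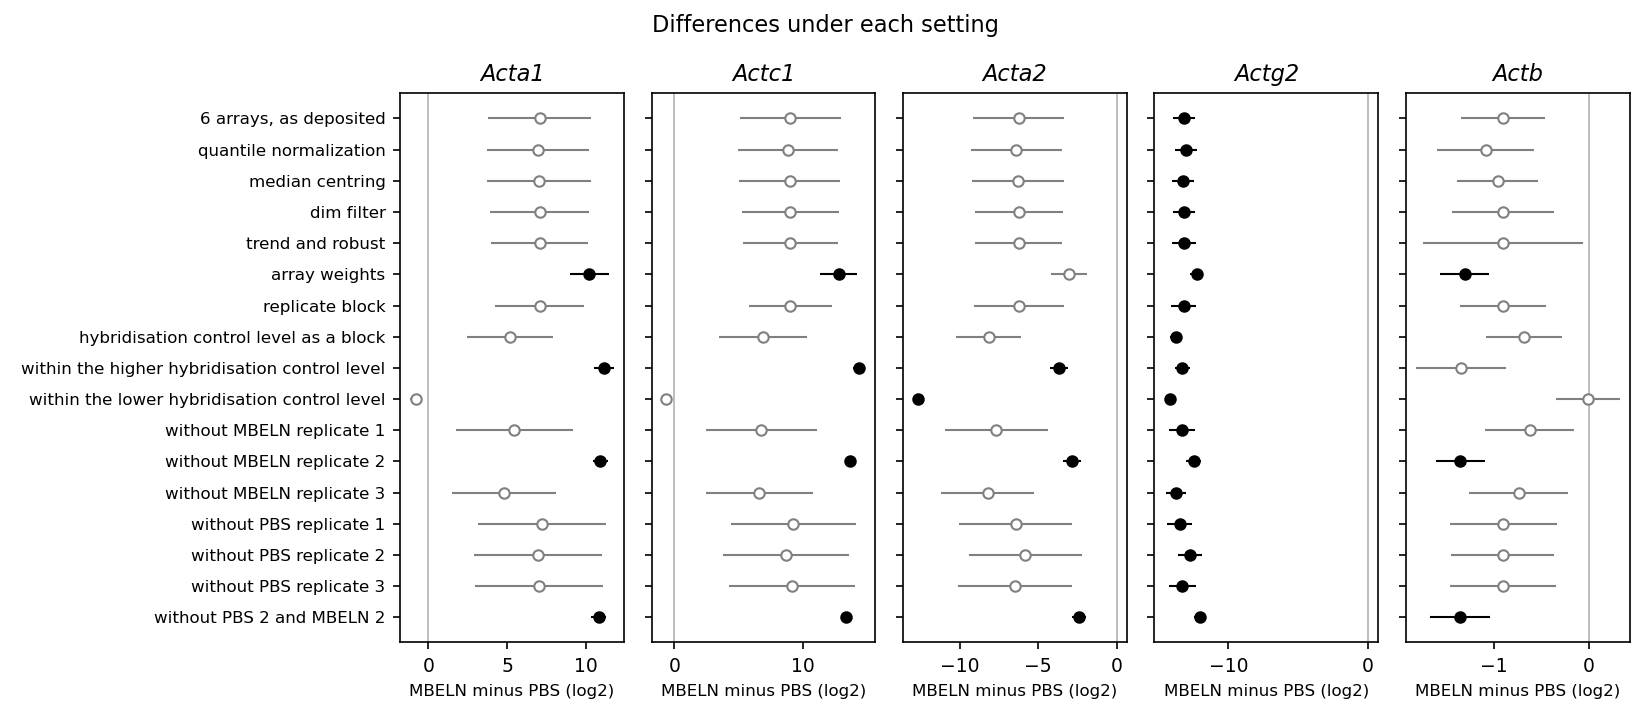
Difference of each actin gene between MBELN and PBS (log2, error bars SE) under 17 settings, with filled points where the limma adjusted p was under 0.05. Actg2 is filled in all 17; Acta1, Actc1, Acta2 and Actb are filled in 3 or 4 settings each, among them both that leave out MBELN 2.

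Fits within a hybridisation control level hold a lone PBS or MBELN array, which is assumed to vary like the others, so calls made there lack a measured spread of that group. The share of all probe sets past the threshold moved with the setting, and the members' calls are read against it. It was 16.8% without MBELN 2, 30.5% without PBS 2 and MBELN 2, 25.9% with array weights, and 18.8% and 32.6% within the higher and lower hybridisation control level, the settings that called members other than Actg2. In the settings that called Actg2 alone it was 6.19% with that level as a block, 11.1% after a filter on dim probe sets, 5.1% with quantile normalization, 5.23% with median centring, 3.9% with a trended robust variance and 2.05% with the replicate block. It was 2.26% without MBELN 1, 2.01% without MBELN 3, 1.7% without PBS 1, 7.21% without PBS 2 and 1.71% without PBS 3, where Actg2 again was the member called.

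The genes whose pattern over the 6 arrays was most like that of each isoform were taken from 13438 named genes by the root mean square difference of values centred on their own mean. For Actc1 these were Tnnc1, the calcium-binding troponin of heart and slow muscle, at 0.50 log2 units, Lmod2, a leiomodin that nucleates actin in heart muscle, at 0.51, and Ankrd23, an ankyrin repeat protein of muscle, at 0.52. For Acta1 they were Fitm1, a lipid droplet protein of muscle, at 0.31, Hjv, the hemojuvelin of iron regulation in liver and muscle, at 0.31, and Itgb1bp2, melusin, at 0.45. Actg2 came closest to genes of epithelium, namely Cdh1, the epithelial cadherin, at 0.51, Krt19, a keratin, at 0.54, and Dmbt1, a mucosal scavenger receptor, at 0.60. Acta2 was less closely matched, with Perp, a desmosomal membrane protein, at 0.65, Mgst1, a microsomal glutathione transferase, at 0.97, and Anxa2, an annexin, at 0.995. For Actb the nearest were Pex26, a peroxisome import factor, at 0.09, Psmd5, a proteasome assembly factor, at 0.12, and Med15, a Mediator subunit, at 0.15. Pex26 was below the dim level in 5 of 6 arrays and Actb near the top of the scale in 4, so the Actb profile and its nearest genes are poorly determined.

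The 10 lists of genes that act on or with actin held 113 measured genes, of which 83 missed the threshold, 27 fell and 3 rose. The share past it was 26.5%, beside 5.18% of all probe sets and 11.1% of those kept by the filter on dim probe sets. Of the 30 genes past it, 12 stand in the brush border list. The median difference of the 113 was -0.20, beside 0.09 for all probe sets. Leaving out MBELN 1, 2 or 3 gave 12, 59 or 9 genes past the threshold, beside 2.26%, 16.8% or 2.01% of all probe sets. Leaving out PBS 1, 2 or 3 gave 6, 26 or 7, beside 1.7%, 7.21% or 1.71%. The count was 68 without PBS 2 and MBELN 2, beside 30.5%. These counts are read against the shares, which also moved with the setting. The genes that rose were Cap2, Fhod3 and Tmod1. Cap2, a cyclase-associated protein of muscle that recycles actin monomers, read 12.58, 15.35 and 13.51 in MBELN and 7.15, 7.40 and 7.86 in PBS (limma, adjusted p = 0.0105). Fhod3, a formin of the heart sarcomere, was at least 14.1-fold higher, since all 3 PBS values were below the dim level. Tmod1, which caps the pointed end of filaments in muscle, read 14.54, 9.65 and 15.16 in MBELN and 5.20, 4.81 and 4.57 in PBS. In MBELN 2, too, all 3 genes lay above their PBS values.

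**Figure D5:**
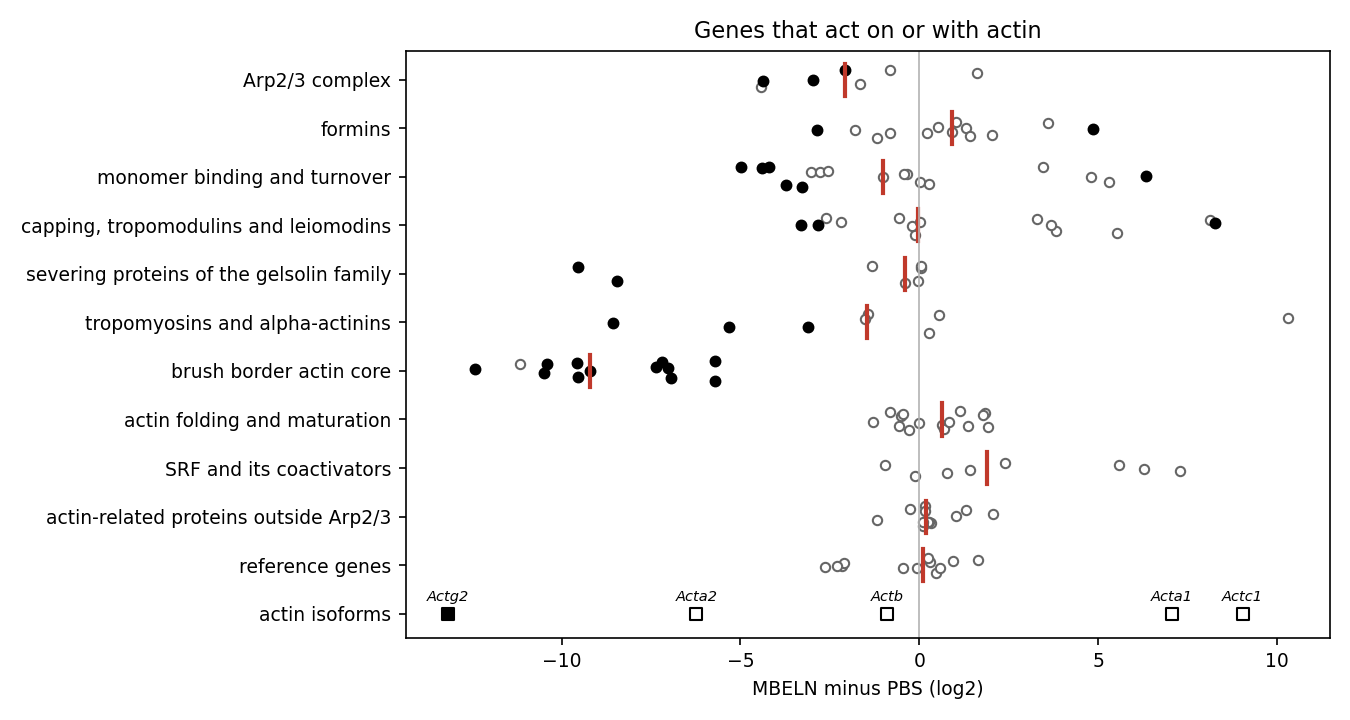
Difference between MBELN and PBS (log2) for each measured gene of 10 lists of actin-related genes and the reference genes, with list medians as red lines and actin isoforms as squares below. Filled symbols passed a limma adjusted p of 0.05, and they include 12 of the 13 brush border genes and, among the isoforms, Actg2 alone.

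The actin core of the brush border fell almost as a whole. Of 13 genes 12 fell, 0 rose and 1 did not pass, with a median difference of -9.19. Of all probe sets, 3.76% were called lower and 1.42% higher. Anks4b, a scaffold of the links between microvilli, was at least 84.3-fold lower. Among the cadherins of those links, Cdhr5 read 7.06, 3.16 and 5.24 in MBELN and 18.05, 16.96 and 17.74 in PBS. Ezr, ezrin, which ties filaments to the membrane, fell by 6.94 ± 0.68 (log2, SE, n = 3). Pls1, a plastin that bundles them, fell by 10.41 ± 1.20. The gene that did not pass, Tmigd1, a membrane protein of the microvilli named after its values were seen, read 3.37, 2.90 and 2.43 in MBELN and 19.62, 3.21 and 19.33 in PBS. Beside this list, the log2 of the summed level of 12 gut epithelial genes lay between 6.95 and 10.999 in MBELN and between 22.06 and 22.47 in PBS, and 8, 0 and 8 of them were above the dim level in MBELN 1, 2 and 3 and all 12 in each PBS array. Of the severing proteins of the gelsolin family, 2 of 7 fell, beside the same 3.76% of all probe sets. Vil1, villin, which also stands in the brush border list, fell by 9.54 ± 1.38, and Scin, scinderin, fell by 8.45 ± 1.34.

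Among assembly factors shared by most cells, some members fell. Of all probe sets, 3.76% were called lower and 1.42% higher. Of 7 measured subunits of the Arp2/3 complex, which starts branched filaments, 3 fell and 0 rose. Actr3 fell by 2.97 ± 0.24, Arpc5 fell by 4.36 ± 0.43 and Arpc2 fell by 2.09 ± 0.36 (log2, SE, n = 3). Of 17 genes of monomer binding and filament turnover, 5 fell, 1 rose and 11 did not pass. Those that fell were Twf1, a twinfilin, Wdr1, a cofactor of cofilin, Coro1c and Coro1b, coronins, and Dstn, destrin, which severs filaments. Dstn read 14.15, 11.72 and 14.92 in MBELN and 18.34, 19.07 and 18.30 in PBS.

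Proteins that bind along or at the ends of filaments went both ways. The counts stand beside 3.76% of all probe sets called lower and 1.42% higher. Of 8 tropomyosins and alpha-actinins, 3 fell and 0 rose. Actn4, a non-muscle alpha-actinin, fell by 5.31 ± 0.40, Tpm2, a tropomyosin of smooth and slow muscle, fell by 8.56 ± 1.10, and Tpm3 fell by 3.13 ± 0.56 (log2, SE, n = 3). Actn2, the alpha-actinin of the Z disc in heart and skeletal muscle, read 18.23, 7.60 and 18.97 in MBELN and 4.48, 4.34 and 5.10 in PBS (limma, adjusted p = 0.157), and was highest in the 2 arrays where Actc1 was high. Of 14 capping proteins, tropomodulins and leiomodins, 2 fell, 1 rose and 11 did not pass. Capza1, a subunit of the barbed end cap, fell by 3.31 ± 0.36, and Lmod1, the smooth muscle leiomodin, fell by 2.83 ± 0.54. Of 13 formins, which elongate straight filaments, Fhod3 rose and Fmn1, a formin of cell junctions, fell by 2.85 ± 0.48. With 1 call each way, the formins cannot be set apart from the shares over all probe sets.

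With all 6 arrays no call was made among genes of actin folding, SRF coactivation or the other actin-related proteins. Of all probe sets 5.18% passed, and 0 calls in lists this small is near that share. Of 15 genes of the CCT chaperonin, prefoldin and actin maturation, 0 passed with limma and 2 had an unadjusted p under 0.05. Without MBELN 2, where 16.8% of all probe sets passed, 1 was called higher. Without PBS 2 and MBELN 2, where 30.5% passed, 4 were. The 15 genes differed by -1.31 to 1.93 over all 6 arrays. Cct7, the member with the smallest p, read 4.502, 4.61 and 5.02 in MBELN and 5.62, 5.25 and 5.70 in PBS. Of 8 genes of SRF and its partners, 0 passed and 2, Mef2c and Fhl2, had an unadjusted p under 0.05. Leaving out MBELN 2 gave 5 called higher and 1 lower, and leaving out PBS 2 as well gave 5 and 2, beside the same 16.8% and 30.5%. Mef2c, a transcription factor of muscle and neurons, read 10.28, 16.59 and 9.75 in MBELN and 7.14, 6.10 and 4.54 in PBS, with its highest value in MBELN 2. Fhl2, a LIM protein of heart, read 18.34, 8.44 and 18.97 in MBELN and 7.90 to 8.01 in PBS, and Gata4, a cardiac transcription factor also found in small intestine, 11.32, 3.45 and 12.14 in MBELN and 2.99 to 3.91 in PBS. Fhl2 and Gata4, unlike Mef2c, were highest in the arrays where the striated actins were high. Srf itself, given outside the naming rule, read 10.14, 7.03 and 9.38 in MBELN and 8.21, 6.98 and 9.04 in PBS. Of 12 actin-related proteins outside Arp2/3, 0 passed and 1 had an unadjusted p under 0.05, which was Actr6, a subunit of chromatin remodelling complexes, at 6.08, 6.31 and 7.51 in MBELN and 5.24, 4.24 and 4.21 in PBS.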

How the data were processed

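The deposited values are log2 values per probe set and array, a scale inferred from their range of 1.45 to 19.93 and array medians of 4.38 to 4.55. The authors used Transcriptome Analysis Console 4.0, per the submitters' processing notes. Background correction, normalization and build remain not given in the sources used here, and the labels' protocols also name a sequencing assay, which is unresolved.

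Control probe sets, 6640 of 28846, stayed out. Of the other 22206, 19572 had 1 symbol, 0 several and 2634 none. A gene with several probe sets was represented by that of highest mean, and groups came from the titles. limma 3.58.1 in R 4.3.3 (lmFit, eBayes, no covariates) compared MBELN with PBS over all 22206, with Benjamini-Hochberg adjustment and a threshold of 0.05, and was tested on simulated data. Where all 3 arrays of a group lay below the dim level, a bound ("at least") runs from the other group's mean to the mean dim level. Lists have counts and medians and no test, and 19 listed symbols without a probe set were not used.

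The members and lists were chosen with earlier results of these data known. Named genes are the members, up to 4 of smallest p per list, the first 3 of a tissue list and the 3 closest profiles per member. Dstn, Coro1b, Lum, Tnni2, Neb and Pvalb were named outside this rule, and other exceptions are stated where they occur. Settings tried were array scaling by quantiles or medians, a dim filter, trended robust variance, array weights, replicate or hybridisation level blocks, fits within a level, and arrays left out. Same-numbered arrays did not deviate together (r of -0.03, -0.07 and -0.06 across probe sets, which are not independent). RefSeq promoters matched 3 of the 5 measured members.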

Additional observations from a re-analysis of the deposited data

How the results depend on the processing

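Under all 16 alternatives Actg2 kept its direction and its adjusted p under 0.05, between -12.04 without PBS 2 and MBELN 2 and -14.19 within the lower hybridisation control level, and from -13.75 to -12.46 when 1 array was left out. The other 4 members passed under some settings. With 1 array left out, Acta1 ranged from 4.804 to 10.92, Actc1 from 6.63 to 13.70, Acta2 from -8.21 to -2.83 and Actb from -1.36 to -0.63, with the call made without MBELN 2 alone. Without PBS 2 and MBELN 2 the values were 10.80, 13.36, -2.41 and -1.36, all past the threshold. With array weights they were 10.21 for Acta1, 12.79 for Actc1 and -1.31 for Actb, all past it, and -3.04 for Acta2 (adjusted p = 0.10). Within the higher hybridisation control level, with PBS 2 the only PBS array, Acta1, Actc1 and Acta2 were at 11.14, 14.39 and -3.67. Within the lower Acta2 was at -12.62 while Acta1 and Actc1 turned to -0.76 and -0.63, in a fit that holds neither MBELN 1 nor MBELN 3. The replicate block changed no member's call (Actg2 adjusted p = 0.0283), with 456 probe sets past the threshold against 1150, and the arrays share only a number. The count was 377 to 3738 with 1 array left out, 5757 with array weights, 4174 and 7234 within the higher and lower level, 6769 without PBS 2 and MBELN 2, and 407 and 1772 at thresholds of 0.01 and 0.10. Of the 1150, 72.6% were lower in MBELN, against 50.1% with array weights, 49.0% and 48.4% within the higher and lower level and 50.5% without PBS 2 and MBELN 2. The count over the actin-related genes was 30, from 6 to 59 with 1 array left out and 68 without PBS 2 and MBELN 2, a setting chosen for these lists after seeing the data. List medians that changed sign when arrays were rescaled or left out were those of 3 lists on actin and reference genes: capping genes, -0.04, were at 0.011 with quantile normalization, 0.43 without PBS 2 and MBELN 2 and -0.13 to 0.36 with 1 array left out, formins, 0.90, at -0.094 without PBS 2 and MBELN 2 and -0.11 to 1.02, and reference genes, 0.09, at -0.022 to 0.20. Within the lower level, where MBELN 2 is the only MBELN array, medians also turned for actin folding (-0.034 against 0.65), heart (-0.18 against 8.07), skeletal muscle (-0.057 against 0.45), pericyte and fibroblast (-2.94 against 0.69) and reference genes (-0.40), and within the higher level for formins (-0.45) and reference genes (-0.072). Blocking on the level gave -0.55 for pericyte and fibroblast genes. The neuronal median, 3.49, was -0.27 without MBELN 2, -0.42 without PBS 2 and MBELN 2 and -0.011 within the higher level, and the glial, 1.42, was -0.039 and -0.052 in the last 2. Apart from what the construction of a fit shows, the cause was not tested. Dim values of Actg2, Acta1 and Actc1 and Actb at the top of the scale limit how large a difference can be measured. No other probe set carried a member's symbol, so that alternative was not run.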
